A study of Mus musculus with 4 samples.

Results

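Ubiquitin-specific proteases other than Usp2 were examined in kidneys without Usp2 (Usp2-KO) and in those of wild-type (WT) littermates, each taken whole. Members were the array rows with a single gene symbol that begins with Usp and a digit, leaving out Usp2 itself and Usp6nl, which is no such protease. Where a symbol had several rows, the row with the highest mean over the 4 arrays was used. The rule found 53 symbols among the 19934 genes tested. Of these, 52 are genes of the protease family by name, and 1, Usp46os2, is by its name an RNA from the strand opposite Usp46. The rule did not use any difference between the genotypes. The mice were C57BL6/N males from 6 littermate pairs, 12 weeks old when killed, and tissue was taken at Zeitgeber time 12, when Usp2 peaks according to the labels. They had been kept for 3 weeks in 12 h of light and 12 h of darkness, in both genotypes. Each array measured a pool of equal amounts of RNA from 3 mice, with 2 WT pools and 2 Usp2-KO pools, and littermates went into pools of the same number. Values are log2 signals, and differences between single animals are hidden within a pool. How Usp2 was inactivated, and in which cells, is not given in the sources used here. In whole kidney, fewer cells of a type and less RNA per cell cannot be told apart.

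Ubiquitin is a small protein that is attached to other proteins through a chain of E1, E2 and E3 enzymes and marks them for destruction by the proteasome, for sorting into endosomes or for signalling. Ubiquitin-specific proteases are cysteine proteases that cut it off again, and they form the largest family of deubiquitinating enzymes. They share a catalytic domain and differ in the domains around it, which bring each enzyme to its substrates. In kidney tubules such enzymes act, among other places, on the channels and transporters of the plasma membrane and on the ligases that control them.

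Medians of the 4 arrays lay between 7.44 and 7.46. The RMA processing of the submitters evens out array medians, so these values do not measure array quality. Correlations across genes were 0.998 within each genotype and between 0.997 and 0.998 between genotypes. Usp2 checked the labels. It lay at 11.63 and 11.71 in the WT pools and at 7.65 and 7.60 in the Usp2-KO pools, a difference of -4.04 (SE 0.07, limma adjusted p = 2.8e-08). Kidney markers matched the labelled tissue, with Slc34a1, Lrp2 and Umod between 13.36 and 14.06 in the 4 pools. The labels name no array batch. Among lists of cell type markers, 3 of 4 collecting duct genes were higher in Usp2-KO kidney at an unadjusted p under 0.05 (75.0%, against 5.22% of all genes), and their summed signal was 11.91 and 11.90 in WT pools 1 and 2 and 12.10 and 12.06 in Usp2-KO pools 1 and 2. Of 4 adipocyte genes, 2 were lower at that p, against 3.88% of all genes, with a summed signal of 9.79 and 9.77 in the WT and of 9.40 and 9.79 in the Usp2-KO pools. In other lists 1 of 3 genes each was higher at that p, namely Calb1 of the distal tubule, Nphs1 of podocytes and Myh11 of smooth muscle. The other 2 distal tubule genes were below 0 without overlap of the pools, as were 19.1% of all genes. The lower of them was at -0.08, and neither had an unadjusted p under 0.05 by limma. Above 0 were 2 of 3 podocyte and 3 of 3 smooth muscle genes. Lower at that p were Cd3e of immune cells, Ctrb1 of pancreas and Alas2 of red blood cells (-0.38). Below 0 were 2 of 4 immune and 3 of 3 pancreas genes, and Alas2 was the 1 red blood cell gene measured. The part of any of these cell types in the values of the proteases was not tested.

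Promoter windows are shown for the members whose higher level in Usp2-KO kidney held at an unadjusted p under 0.05 in each alternative run, as far as RefSeq gave one. These members were Usp1, Usp15, Usp16 and Usp8, and windows were at hand for Usp15, Usp16 and Usp8. Each window runs 5′ to 3′ from 250 bases before to 50 bases after the gene's start in the RefSeq annotation of GRCm38.p6. Capitals mark matches on either strand to any of 6 motifs. These were the E-box CACGTG, through which the clock factors CLOCK and BMAL1 act, the D-box TTATGTAA, the CCAAT box CCAAT, the GC box GGGCGG, the ETS core CCGGAAG and the TATA box TATAAA.
Usp15 (chr10:123196970-123197269, strand -): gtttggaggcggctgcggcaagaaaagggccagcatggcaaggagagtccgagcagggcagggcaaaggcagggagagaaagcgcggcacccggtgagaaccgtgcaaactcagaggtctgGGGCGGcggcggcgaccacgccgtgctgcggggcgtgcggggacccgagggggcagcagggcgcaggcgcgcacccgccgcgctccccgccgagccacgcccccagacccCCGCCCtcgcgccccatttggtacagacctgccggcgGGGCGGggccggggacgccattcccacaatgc
Usp16 (chr16:87454735-87455034, strand +): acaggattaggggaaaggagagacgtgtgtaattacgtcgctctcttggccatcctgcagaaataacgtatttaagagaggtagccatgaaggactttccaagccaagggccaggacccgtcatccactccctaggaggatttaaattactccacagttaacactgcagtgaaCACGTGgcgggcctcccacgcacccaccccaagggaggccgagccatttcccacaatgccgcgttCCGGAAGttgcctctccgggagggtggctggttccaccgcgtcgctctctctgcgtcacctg
Usp8 (chr2:126707078-126707377, strand +): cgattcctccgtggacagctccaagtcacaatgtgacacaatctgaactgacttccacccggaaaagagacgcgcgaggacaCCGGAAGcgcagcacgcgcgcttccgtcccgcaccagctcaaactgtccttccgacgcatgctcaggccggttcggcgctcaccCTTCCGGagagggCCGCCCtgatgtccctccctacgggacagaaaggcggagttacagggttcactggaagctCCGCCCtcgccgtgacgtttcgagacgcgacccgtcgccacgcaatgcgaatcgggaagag
No motif of the list was common to all 3 windows. Usp15 holds 3 GC boxes and no other match, Usp16 an E-box and an ETS core, and Usp8 holds 2 GC boxes and 2 ETS cores. Across the members, 40 of the 53 symbols had a window. An E-box was in the windows of 4 of these 40 genes (10%), namely Usp4, Usp16, Usp31 and Usp32, against 8.26% of the 19113 windows of tested genes. GC boxes were in 25 member windows (62.5%, against 49.3%), ETS cores in 8 (20%, against 12.1%) and CCAAT boxes in 13 (32.5%, against 37.4%). TATA boxes were in 5 (12.5%, against 11.5%), and the D-box was in 0, against 0.842%. The member windows had a median of 25 CpG pairs, against 15 over the windows of tested genes. At the other end, the windows of the 4 Usp17 genes held 0 or 1 CpG pairs and 2 to 4 CCAAT boxes each. A match is a string of letters and no measured binding site.

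Members of the family were, on the whole, little different between the genotypes. The difference between Usp2-KO and WT kidney was under 0.1 on the log2 scale in either direction for 34 of the 53 symbols, and its median was 0.03, against -0.01 over all genes tested. Above 0 were 32 members (60.4%, against 47.5% of all genes). None of the 53 passed an adjusted p of 0.05 in the limma comparison over all 19934 genes (0.00502% of genes passed, the 1 gene being Usp2), and the smallest adjusted p of a member was 0.286. At an unadjusted p under 0.05, 8 members were higher (15.1%, against 5.22% of all genes) and 1 was lower (1.89%, against 3.88%). No filter on signal was applied, and 45 of the 53 symbols had a mean log2 value of at least 6. Standard errors lay between 0.07 and 0.12. For 33 members the 95% confidence interval stayed between -0.3 and 0.3, so a change beyond that size lies outside it. An exact two-sided permutation test of 2 pools against 2 cannot give a p below 0.333.

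**Figure D1:**
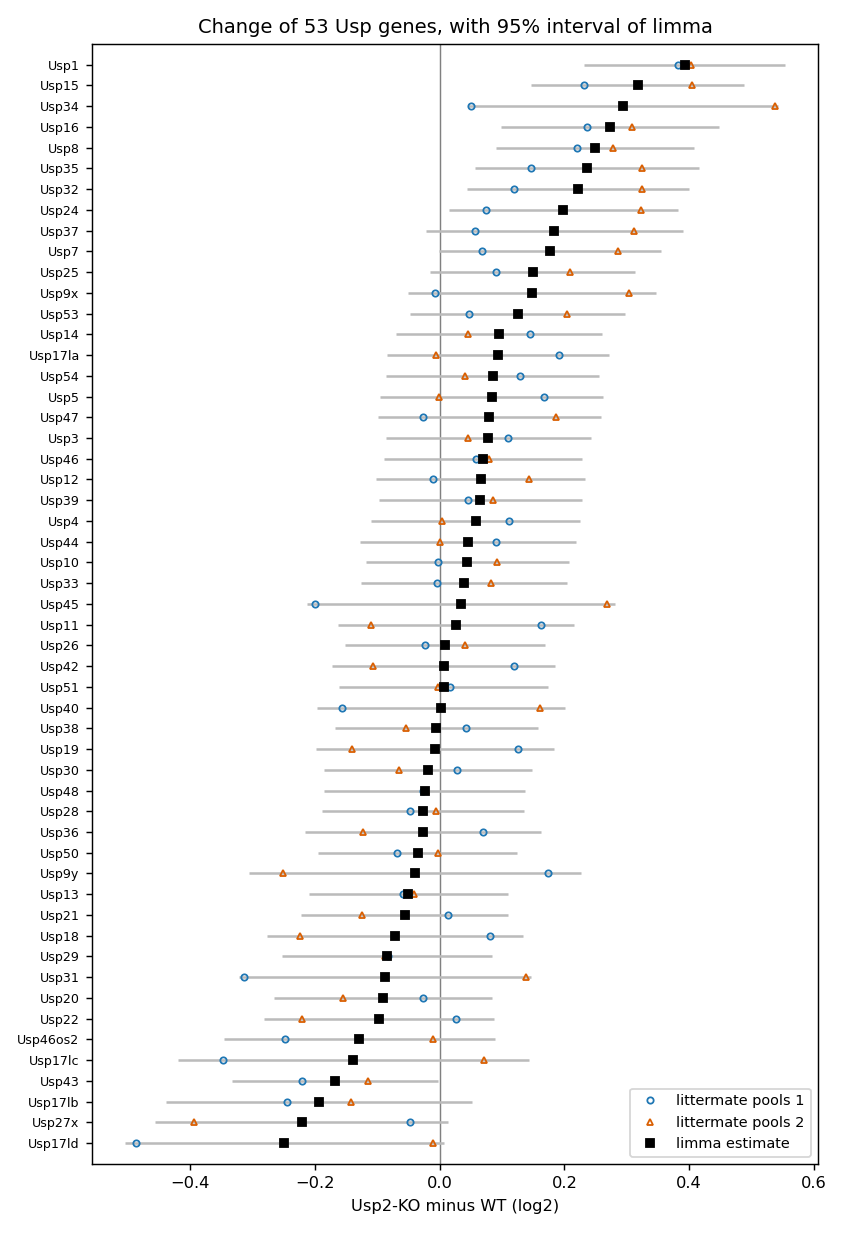
The change of each of the 53 symbols (x axis, Usp2-KO minus WT on the log2 scale) is shown as the limma estimate (square) with its 95% interval (line) and as the difference of each littermate pair of pools (circle and triangle). Estimates run from -0.25 for Usp17ld to 0.39 for Usp1, and the intervals of 8 members lie above 0 and that of 1 member, Usp43, below it.

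The proteases that are switched on by the scaffold protein WDR48 are Usp1, Usp12 and Usp46. Usp1 removes ubiquitin from the DNA repair protein FANCD2 and from PCNA, the clamp of DNA polymerases. Its log2 value was 7.82 and 7.76 in the WT pools and 8.20 and 8.17 in the Usp2-KO pools. Both Usp2-KO pools were above both WT pools, and the gap between the groups was several times the distance within either. The difference was 0.39 (SE 0.07, 95% confidence interval 0.23 to 0.55), or 1.31-fold, with an unadjusted p of 0.000379 (limma adjusted p = 0.286). The littermate pairs gave 0.38 and 0.40. With the littermate pools as a block, Usp1 was the 1 member that passed, with a limma adjusted p of 0.0157, among 0.768% of all genes that passed in that fit. In that fit the arrays leave 1 residual degree of freedom and the prior weighs as 90.6, so a gene's own spread counts for little. Usp46 (9.82 and 9.79 in WT, 9.88 and 9.87 in Usp2-KO pools) differed by 0.07 and Usp12 by 0.07, each with a standard error of 0.07. The activator gene Wdr48 differed by 0.08, and Wdr20, which encodes a second activating partner, by -0.08.

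Usp4, Usp11 and Usp15 encode proteases of like domain order. USP15 acts on receptor and SMAD proteins of the TGF-beta pathway, among other substrates. Usp15 lay at 8.48 and 8.38 in the WT pools and at 8.71 and 8.79 in the Usp2-KO pools. The groups did not overlap, and the difference was 0.32 (SE 0.08, 95% confidence interval 0.15 to 0.49, unadjusted p = 0.00232, limma adjusted p = 0.3). The littermate pairs gave 0.23 and 0.40. Usp4 differed by 0.06 (95% confidence interval -0.11 to 0.23) and Usp11 by 0.03 (-0.16 to 0.22). Usp11 changed direction between the pairs, with 0.16 in the first and -0.11 in the second.

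Usp8, Usp21 and Usp50 were set together for a catalytic domain close to that of USP2. USP8 works at endosomes, where it removes ubiquitin from receptors such as EGFR and from the sorting machinery. Its gene lay at 9.49 and 9.44 in the WT pools and at 9.71 and 9.72 in the Usp2-KO pools. Pools of 1 genotype were closer to each other than to any pool of the other genotype. The difference was 0.25 (SE 0.07, 95% confidence interval 0.09 to 0.41, unadjusted p = 0.00637, limma adjusted p = 0.362), with 0.22 and 0.28 in the littermate pairs. Usp21 differed by -0.06 (95% confidence interval -0.22 to 0.11) and Usp50 by -0.03. The genes of endosomal partners of USP8 differed little, with 0.07 for Stam, 0.03 for Stam2, -0.08 for Hgs and -0.10 for Ptpn23, and Egfr differed by -0.05.

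Among the 8 measured genes of histone and chromatin proteases, 5 were above 0 and 3 below, while 47.5% of all genes were above 0. Higher at an unadjusted p under 0.05 by limma was 1, Usp16 (12.5%, against 5.22% of all genes). USP16 removes ubiquitin from histone H2A. Usp16 lay at 7.92 and 7.97 in the WT pools and at 8.15 and 8.28 in the Usp2-KO pools, without overlap. It differed by 0.27 (SE 0.08, 95% confidence interval 0.10 to 0.45, unadjusted p = 0.00634, limma adjusted p = 0.362), and the littermate pairs gave 0.24 and 0.31. Usp27x, an intronless relative of Usp22 on the X chromosome, differed by -0.22 (unadjusted p = 0.0625 by limma), of which the pairs gave -0.05 and -0.39. Usp22, the protease of the SAGA complex, differed by -0.10, Usp3 by 0.08 and Usp36 by -0.03. Usp42, Usp44 and Usp51 were between 0.01 and 0.05, and Usp42 was at -0.03 with quantile normalization repeated. Eny2, an adaptor gene of the SAGA deubiquitinating module, was higher by 0.28 (unadjusted p = 0.00959, limma adjusted p = 0.385). Atxn7l3b, a relative of the adaptor gene Atxn7l3 and not itself an adaptor of that module, was higher by 0.24 (unadjusted p = 0.00748, limma adjusted p = 0.371). Atxn7l3 itself differed by 0.09 and Atxn7 by -0.02.

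The very large proteases Usp9x, Usp24 and Usp34 were each nearer to 0 in the first littermate pair than in the second. USP34 acts on axin in the Wnt pathway. Usp34 lay at 9.21 and 9.04 in the WT pools and at 9.27 and 9.57 in the Usp2-KO pools. The first Usp2-KO pool was close to the first WT pool, and the second stood above the other 3. The difference was 0.29 (SE 0.11, 95% confidence interval 0.05 to 0.54, unadjusted p = 0.025, limma adjusted p = 0.466), made of 0.05 and 0.54 in the pairs, and it was 0.14 without Usp2-KO pool 2. Usp24 lay at 10.36 and 10.23 in WT and at 10.44 and 10.55 in Usp2-KO pools, a difference of 0.20 (SE 0.08, unadjusted p = 0.0368, limma adjusted p = 0.515) that was 0.13 without WT pool 2. A second row of Usp24 gave 0.15. Usp9x differed by 0.15 (-0.01 and 0.30 in the pairs), and its groups overlapped. Its Y-linked copy Usp9y was at 4.01 ± 0.28 (SD, n = 2 pools) in WT and differed by -0.04. Usp9x had a mean of 11.01 in WT, so the Usp9y row holds little if any of its signal. Whether the Usp9x row takes up Usp9y RNA was not tested.

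The remaining members with an unadjusted p under 0.05 were Usp35, Usp32 and Usp43. Usp35 lay at 6.01 and 5.86 in WT and at 6.16 and 6.18 in Usp2-KO pools. The difference was 0.24 (SE 0.08, unadjusted p = 0.0156, limma adjusted p = 0.425), and without WT pool 2 it was 0.16. Usp32, whose product sits on Golgi and endosome membranes, lay at 9.45 and 9.38 in WT and at 9.57 and 9.70 in Usp2-KO pools. It differed by 0.22 (SE 0.08, unadjusted p = 0.02, limma adjusted p = 0.446), with 0.12 and 0.32 in the pairs. Usp43 was the 1 lower member at that p, and with the replicate block its unadjusted p by limma was 0.0763. It lay at 7.80 and 7.79 in WT and at 7.58 and 7.67 in Usp2-KO pools, a difference of -0.17 (SE 0.07, unadjusted p = 0.0468, limma adjusted p = 0.539), and both pairs were below 0.

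**Figure D2:**
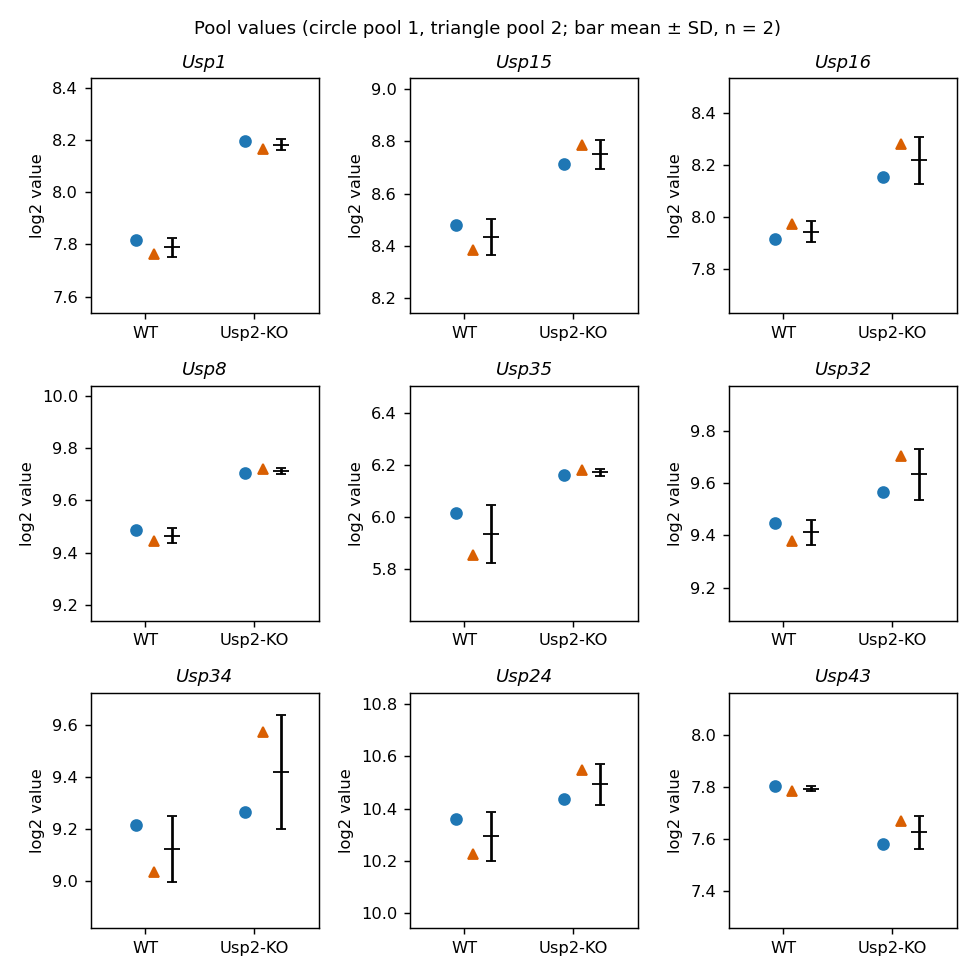
Pool values of the 9 members with an unadjusted p under 0.05, on the log2 scale, with WT and Usp2-KO side by side (circle for pool 1, triangle for pool 2, bar for mean and SD of 2 pools), each panel spanning the same log2 range. In all 9 the genotypes do not overlap, which the choice by p favours (among all genes, 38.9% do not overlap). Usp1 and Usp8 have the tightest pools beside their gap, while in Usp34 and Usp24 the WT pool 1 and Usp2-KO pool 1 lie close together.

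Proteases of the p53 and DNA damage response had 5 of 7 members above 0, as were 47.5% of all genes. At an unadjusted p under 0.05 by limma there were 0, against 5.22% of all genes higher and 3.88% lower. Usp7 encodes the protease that stabilises MDM2 and p53, and it lay at 9.78 and 9.66 in WT and at 9.85 and 9.95 in Usp2-KO pools. The groups did not overlap. The difference was 0.18 (SE 0.08, unadjusted p = 0.051, limma adjusted p = 0.551), and without WT pool 2 it was 0.12. Usp37, a protease of the cell cycle, differed by 0.18, with 0.06 and 0.31 in the pairs. Usp47 (0.08), Usp10 (0.04), Usp45 (0.03), Usp48 (-0.02) and Usp28 (-0.03) were near 0, although the pairs of Usp45 gave -0.20 and 0.27. Usp28 is the member nearest to Usp2 on chromosome 9, 76 measured genes away among 1165, and the other members on that chromosome were Usp3, Usp4 and Usp19.

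The enzymes that handle free ubiquitin chains and chains at the proteasome differed little. Usp14, which works on the proteasome, differed by 0.10 (95% confidence interval -0.07 to 0.26), Usp5, which takes apart free chains, by 0.08, and its relative Usp13 by -0.05. Usp20 and Usp33, which bind the VHL ligase, differed by -0.09 and 0.04. At membranes of the endoplasmic reticulum and of mitochondria, Usp19 differed by -0.01 and Usp30 by -0.02. Usp18, which removes the ubiquitin-like protein ISG15 and is induced by interferon, lay at 8.08 and 8.31 in WT and at 8.16 and 8.09 in Usp2-KO pools, so the genotypes overlapped. The difference was -0.07 (95% confidence interval -0.28 to 0.13). Of 11 measured interferon genes 9 were below 0, with a median of -0.06, and 0 had an unadjusted p under 0.05 by limma, against 5.22% of all genes higher and 3.88% lower. Usp25 differed by 0.15 (95% confidence interval -0.01 to 0.31), Usp40 by 0.00, Usp38 by -0.01 and Usp31 by -0.09. The 2 rows of Usp31 went in opposite directions, with -0.09 and 0.11.

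Usp39, Usp53 and Usp54, grouped here as without a complete catalytic site, were all slightly higher, without an unadjusted p under 0.05. Usp53, whose product sits at tight junctions, differed by 0.13, its relative Usp54 by 0.09 and Usp39, of the spliceosome, by 0.07. In each, as in 19.8% of all genes, both Usp2-KO pools were above both WT pools. A second row of Usp54 gave 0.13. Of the 6 measured genes in a group that joins 4 Usp17 genes with Usp26 and Usp29, 4 were below 0. Usp17ld lay at 7.93 and 7.80 in WT and at 7.44 and 7.79 in Usp2-KO pools, a difference of -0.25 (SE 0.11, unadjusted p = 0.0549 by limma), made of -0.49 and -0.01 in the pairs. Usp17ld, Usp17lb (-0.19), Usp17lc (-0.14) and Usp17la (0.09) are near-identical copies on chromosome 7, and their assignment is uncertain. Usp26 differed by 0.01 and Usp29 by -0.08. The antisense RNA Usp46os2 differed by -0.13, while Usp46 was at 0.07. The 2 further array rows that name a member together with other genes are counted nowhere here. Usp49 with Med20 differed by -0.01. The row of Usp17le with Usp17ld, Usp17lc and Usp17la differed by 0.12, opposite in direction to the row of Usp17ld alone.

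Both Usp2-KO pools were above both WT pools for 18 members (34.0%, against 19.8% of all genes) and below both for 7 (13.2%, against 19.1%). The littermate pairs gave the same sign for 29 members, of which 18 were higher and 11 lower. Higher in both pairs were thus 34.0% of members, against 26.1% of all genes, and lower in both were 20.8%, against 25.3%. The count of 8 higher members depended on the pools. It was 4 without WT pool 2 (7.55%, against 3.64% of all genes) and 4 without Usp2-KO pool 2 (7.55%, against 3.87%), and the 4 were Usp1, Usp15, Usp16 and Usp8 each time. Without Usp2-KO pool 1 it was 11 (20.8%, against 6.14%), and without WT pool 1 it was 9 (17.0%, against 3.71%). Among the brighter genes, those above the median signal, 9 of 39 members were higher (23.1%, against 8.8%).

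**Figure D3:**
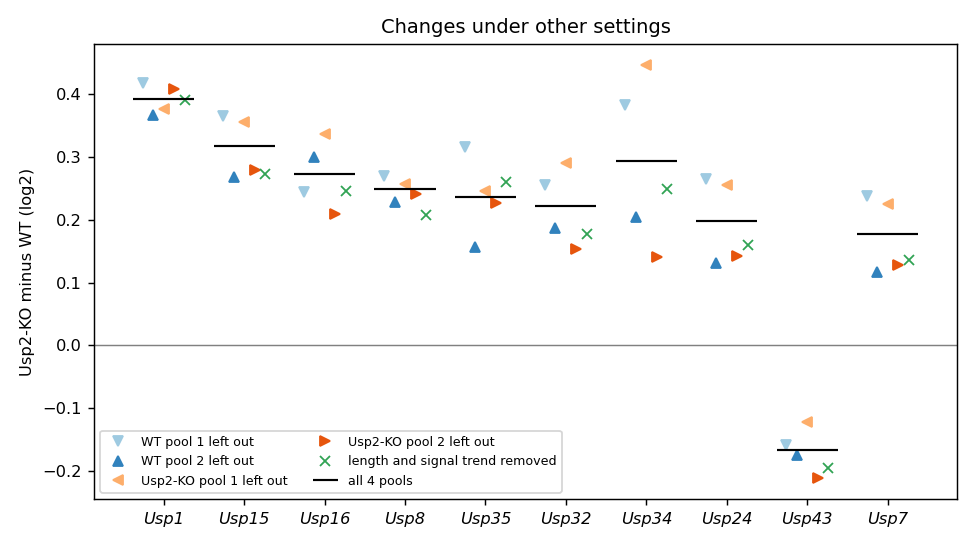
Change (y axis, Usp2-KO minus WT on the log2 scale) of the 10 members of smallest p with the same sign in both pairs, with all 4 pools (line), with each pool left out and with the trend of gene length and signal removed (symbols). Where the pools of the groups do not overlap, the direction is fixed when a pool is left out; Usp1 stays between 0.37 and 0.42, while Usp34 runs from 0.14 to 0.45.

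The proteases are long genes. Their median length in the GRCm38.p6 gene table was 48.0 kb, against 17.7 kb over all measured genes, and lay at percentile 75.7. The change grew with gene length among the 52 members with a length (Spearman rho 0.35) and among all 19852 genes with one (rho 0.19). These are correlations across genes of the same 4 arrays, given as descriptions. Among members the rho was 0.42 in the second littermate pair and 0.02 in the first. Over all genes both pairs gave a like value, 0.12 and 0.15. Of 21 members over 60 kb, 15 were above 0 (71.4%, against 57.0% of all such genes), with a median of 0.08 against 0.02. Of 11 members under 20 kb, 5 were above 0 (45.5%, against 40.6%), with a median of -0.01 against -0.02. These bounds were chosen after the values were seen. Usp1, the member of the largest difference, is a short gene of 11.7 kb. With the trend against length and signal removed from each array, 6 of 52 members were higher at an unadjusted p under 0.05 (11.5%, against 5.05%), and the median was 0.02. The rho among members was 0.31 after that removal. Usp1 then stood at 0.39, Usp15 at 0.27, Usp16 at 0.25 and Usp8 at 0.21, while Usp34 and Usp24 were at 0.25 and 0.16.

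**Figure D4:**
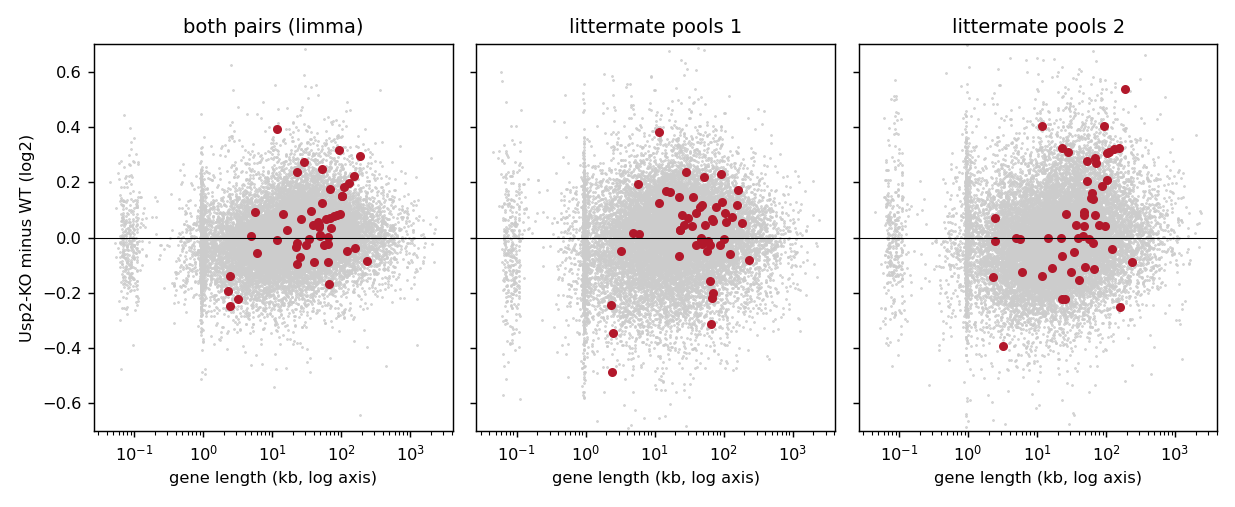
Change on the log2 scale (y axis) against gene length in kb (log x axis) for all measured genes (grey) and the members (red), for the limma estimate and for each littermate pair; points beyond 0.7 in either direction lie outside the panels. The members' points climb with length in the second pair (Spearman rho 0.42) and not in the first (rho 0.02).

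Other genes of the pathway were read from lists, which were counted as the members were. The list of partners and activators, in which Atxn7l3b was placed as a relative of Atxn7l3, had 18 measured genes. Of these, 11 were above 0, and the median was 0.04. Higher at an unadjusted p under 0.05 by limma were 2, Atxn7l3b and Eny2 (11.1%, against 5.22% of all genes). Ywhae, the next by p, was at 0.15. Of 19 reported substrates, 14 were above 0 and 2 were higher at that p (10.5%, against 5.22%). These were Itch, a ubiquitin ligase, by 0.19 and Tgfbr1, a TGF-beta receptor, by 0.17, and Rnf168 was at 0.11. Of the genes whose products USP1 acts on, Fancd2 was at 0.03, Fanci at -0.09 and Pcna at 0.02. Of 10 listed ubiquitin genes and E1 enzymes only 3, all E1 enzymes, were measured, with a median of -0.05. E1 enzymes activate ubiquitin or, in the case of UBA7, the ubiquitin-like ISG15. Uba6 was higher by 0.21 (unadjusted p = 0.0223, limma adjusted p = 0.458), which is 1 of 3, against 5.22% of all genes. Uba7 was at -0.05 and Uba1y at -0.11. Cyld, a related protease whose symbol is outside the rule, lay at 8.26 and 8.20 in WT and at 8.49 and 8.55 in Usp2-KO pools. It differed by 0.29 (SE 0.07, unadjusted p = 0.0035, limma adjusted p = 0.318), while Uspl1 and Pan2 were at -0.01 and 0.05. Cell cycle markers had a median of -0.03 over 11 genes, with 0 at an unadjusted p under 0.05 in either direction by limma, 4 genes above 0 and values from -0.24 (Bub1) to 0.10 (Plk1). All genes had 5.22% higher and 3.88% lower at that p.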

How the data were processed

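The deposited table holds log2 expression values of 28270 array rows, which the authors made with RMA per the submitters' processing notes. Software version, row filters and detection calls are not given here. The labels' protocols state that 300 ng of RNA per pool was labelled for an Affymetrix whole-transcript array. Of the rows, 21780 had 1 symbol in the platform's annotation. The row of highest mean was used for each gene, which gave 19934 genes, and 52 of 53 members matched a gene table of GRCm38.p6.

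The difference between genotypes was tested over all genes with limma 3.58.1 (R 4.3.3; 2 pools a group, Benjamini-Hochberg adjustment) and the fit checked on simulated data. Pools share numbers because littermates were kept together, per the series' design text, although the deviations of same-numbered pools correlated at -0.121 across genes. A fit with the replicate block was planned, and a fit with the pairs crossed was added after the data were seen. Other alternatives were an intensity trend, a robust prior, filters on signal, other treatment of rows, repeated quantile normalization, median centring, removal of the trend with length and signal (loess, span 0.3), a threshold of 0.10 and each pool left out.

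Members and lists were chosen with earlier results of these data known. The 10 members given most fully were those of smallest p with the same sign in both pairs. A fixed set of others was always given, and up to 3 genes per list. Further genes were named with their values in view. Counts at an unadjusted p under 0.05 are set beside the share of all genes, in place of a test of the list. Summed signals of marker lists are log2 of the sum of linear signals. Figures were drawn with matplotlib 3.10.9.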

Additional observations from a re-analysis of the deposited data

How the results depend on the processing

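The number of members past an adjusted p of 0.05 was 0 in every alternative run except the replicate block of littermate pools, where it was 1 (Usp1). With the pairs crossed, a setting chosen after seeing the data, 9 members were higher and 3 lower at an unadjusted p under 0.05. The 3 lower were 5.66% of members, against 5.08% of all genes, and the share of all genes higher in that fit is not given here. Against 1 lower member in the main fit (1.89%, against 3.88% of all genes), the count of lower members was 3 with the block (5.66%, against 3.94%). These were Usp17lb, Usp17ld and Usp27x, without Usp43. The count was 3 with an intensity trend (5.66%, against 3.5%) and 3 with a mean log2 value of at least 6 as a filter (6.67%, against 3.93%). Among genes above the median signal it was 2 (5.13%, against 2.14%), and with every row on its own 0 of 56. The median change of 0.03 was 0.058 among genes above the median signal, 0.0445 with the mean of at least 6 (also as a choice of members made later), 0.0418 with every row, 0.0223 with quantile normalization repeated and 0.0199 with the trend of length and signal removed. With a pool left out, the count of higher members ran from 4 to 11, that of lower members from 1 to 4, the median from 0.0305 to 0.0455 and the count of members whose pools do not overlap from 38 to 39, against 25, since 3 pools overlap less readily than 4. Over all genes the share of lower calls in those fits was 2.86% to 4.7%, against 1.89% to 7.55% of members, and that without overlap 66.5% to 72.3%, against 71.7% to 73.6%. In at least 1 alternative, 19 members changed sign, each with a difference of at most 0.14 in the comparison of all pools. Of those always named, without a pool Usp11 ran from -0.0505 to 0.10, Usp33 from -0.008 to 0.086, Usp28 from -0.061 to 0.008 and Usp18 from -0.19 to 0.0455; the cause was not tested. At the adjusted threshold the block changed no other member's call. With 2 pools a group and no detection calls, small changes cannot be resolved, and dim rows cannot be told from background.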
